A study of Mus musculus with 2 samples.

Results

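The IL-17 program of visceral adipose tissue (VAT) was followed through 8 genes, chosen by name: the cytokines Il17a and Il17f, the cytokine receptors Il23r and Il1r1, the kinase Blk, the scavenger receptor Cd163l1, and the transcription factors Zbtb16 and Maf. All 8 were listed among the 26981 genes of the data. They were measured by single-cell RNA sequencing (scRNA-seq) of CD45+ cells, that is, leukocytes, enriched on magnetic beads from the VAT of wildtype C57BL/6 mice aged 15 weeks. One group drank normal water (NW) and the other water with antibiotics (ABX), which per the study's methods were ampicillin, vancomycin, streptomycin and colistin and served to deplete the gut microbiota. Each condition was 1 library, and the number of mice behind a library is not given in the sources used here, so the spread between mice is unknown and no test between conditions was made. After filters on cell quality, 12474 cells of NW and 12724 of ABX were kept, with medians of 5092 and 3845.5 unique molecular identifiers (UMIs, counted mRNA molecules). Of the cell labels, 196 occurred in both libraries.

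Interleukin-17 is an inflammatory cytokine of barrier tissues and fat. Many γδ T cells, whose receptor is made of a γ and a δ chain, make it rapidly, without prior encounter of antigen, when IL-1 and IL-23 bind their receptors. In mouse fat, such cells often carry a Vγ6 chain paired with a Vδ chain encoded by Trdv4, and PLZF, the product of Zbtb16, marks innate-like T cells of both the γδ and the αβ lineage.

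The 8 genes lie on 6 chromosomes of GRCm38 (GENCODE M21 annotation). Il17a (chr1:20730905-20734496, plus strand) and Il17f (chr1:20777146-20790617, minus strand) are neighbours on chromosome 1, where Il1r1 is also found (chr1:40225080-40317257). Il23r is at chr6:67422932-67491855, Cd163l1 at chr7:140218267-140231145, Maf at chr8:115682942-115707794, Zbtb16 at chr9:48654297-48836222 and Blk at chr14:63372836-63417037. All are annotated as protein coding. Promoter sequences from RefSeq (GRCm38.p6) were matched for 5 of the 8 genes. The 250 bases before the RefSeq start are shown for Il17a (chr1:20730655-20730904, plus strand), Il17f (chr1:20784271-20784520, minus strand, inside the longer GENCODE span of that gene) and Il23r (chr6:67491856-67492105, minus strand), because these 3 windows hold AGGTCA, a core bound by many nuclear receptors, on either strand. Capitals mark AGGTCA or its reverse complement TGACCT, and the sequences run 5′ to 3′.
Il17a: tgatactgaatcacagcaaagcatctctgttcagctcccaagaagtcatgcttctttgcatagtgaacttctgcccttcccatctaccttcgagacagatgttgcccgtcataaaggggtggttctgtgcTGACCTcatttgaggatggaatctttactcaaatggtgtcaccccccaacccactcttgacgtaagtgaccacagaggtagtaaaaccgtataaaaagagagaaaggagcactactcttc
Il17f: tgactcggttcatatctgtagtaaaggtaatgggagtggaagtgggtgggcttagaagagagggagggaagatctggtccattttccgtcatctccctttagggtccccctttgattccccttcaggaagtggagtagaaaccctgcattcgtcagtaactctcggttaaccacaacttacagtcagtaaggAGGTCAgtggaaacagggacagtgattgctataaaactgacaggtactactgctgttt
Il23r: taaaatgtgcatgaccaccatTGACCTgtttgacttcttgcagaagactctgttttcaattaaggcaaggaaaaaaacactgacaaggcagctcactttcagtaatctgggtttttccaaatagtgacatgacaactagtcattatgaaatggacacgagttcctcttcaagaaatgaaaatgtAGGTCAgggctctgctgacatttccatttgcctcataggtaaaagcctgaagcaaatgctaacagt
The match begins 120 bases before the start in Il17a and 58 bases before it in Il17f, and in Il23r the matches begin 229 and 66 bases before it. In Il17a the match overlaps by 3 bases with TGCTGA, the core bound by large Maf proteins, which begins at base -123. TGCTGA was also found in the windows of Il23r, at base -54, and of the upstream Il1r1 start, at base -132, and neither motif was found in that of Cd163l1. Of the 27025 genes with a window, 15.8% held AGGTCA on either strand and 18.0% held TGCTGA, so a match of this kind is common and describes the letters alone.

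Cells were clustered from mRNA and surface antibodies without the 8 genes and without 40 other genes of the pathway, so that levels by cell class did not come from the genes that made the classes. The γδ T-like class held 240 NW and 300 ABX cells, 1.92% (95% interval 1.69% to 2.18%) and 2.36% (2.10% to 2.64%) of the libraries. Its name rests on Trdc, the δ constant gene, detected in 87.9% (NW) and 81.7% (ABX) of the cells, on Cd3e in 84.2% and 82.0%, and on a median of 8 and 6 UMIs of the TCRβ antibody, against 38 and 34 in αβ T-like cells. The markers set for this name also included Trdv4, the Vγ6 gene Tcrg-V6 and the γ constant gene Tcrg-C1. These belong to the pathway genes left out of the clustering, so their levels in the class are not independent of its name. The αβ T-like class held 940 NW and 1014 ABX cells. Among these, a cluster of 79 NW and 176 ABX cells with median TCRβ antibody counts of 47 and 44 had Cd4, Cd8a and Cd8b1 each in fewer than 10% of its cells over both libraries, and is called double-negative αβ T-like here. Trdc had a UMI in 3.80% and 2.84% of those cells. Per 1000000 UMIs, the γ constant gene Tcrg-C2 had 544 (NW) and 538 (ABX) there, against 723 and 732 in γδ T-like cells. In αβ T-like cells as a whole it had 81.6 and 116. Tcrg-C1 had 775 and 635 in the double-negative cells, 2439 and 2322 in γδ T-like and 102 and 150 in all αβ T-like cells. The leading genes of the double-negative cluster were 5830411N06Rik, a scavenger receptor gene related to Cd163l1, and Fam83a, Ret and Kcnc1. The other lymphocyte classes were CD4 T-, Treg-, CD8 T-, Ccr7-high T-, NK-, ILC2-, B cell- and plasma cell-like. One more class, called Xcl1-high after its leading gene, held 309 NW and 418 ABX cells. It had met the markers set for NKT cells, but its leading genes Xcl1, Klrb1b and Itga1 are genes of NK cells and their relatives, and Cd3e was detected in 51.8% and 47.9% of it, so no cell type is given. A further 528 NW and 476 ABX cells among the T, NK and innate lymphoid cells carried markers of another lineage and stayed unnamed. Levels are given as UMIs per 1000000 UMIs of the class (CPM), with exact Poisson 95% intervals, shares of cells with exact binomial (Clopper-Pearson) 95% intervals, and ratios with exact 95% intervals for 2 Poisson counts. All cover counting error only.

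Il17a, the founding cytokine of the family, was found mostly in γδ T-like cells of NW. Over all cells of both libraries it had 44 UMIs in 20 cells, of which 36 UMIs (81.8%) in 14 cells were γδ T-like and 4 UMIs (9.09%) in 2 cells double-negative αβ T-like. The remaining 4 UMIs were single ones, in 2 unnamed T, NK or innate lymphoid cells, 1 B cell-like cell and 1 macrophage-like cell. Its γδ T-like level was 34.6 CPM in NW, from 34 UMIs in 13 cells, and 2.24 CPM in ABX, from 2 UMIs in 1 cell. No UMI was seen in CD4 T-, NK- or ILC2-like or in Xcl1-high cells of either library, where the upper limit of the level was at most 3.02 CPM. Among the 13 positive NW cells, 5 had 1 UMI, 5 had 2 and 3 had 4 or more, up to 8, and these cells held a median of 4929 UMIs. All 13 had Trdc, with 9 to 30 UMIs each, and all 13 had Cd163l1. Il17f, the close relative and partner of IL-17A, had 10 UMIs in 10 cells over both libraries, spread over γδ T-like, αβ T-like, ILC2-like, myeloid and proliferating cells. In γδ T-like cells it had 2 UMIs in NW and 0 in ABX, which allows a share of ABX cells with a UMI of up to 1.22%, not a limit on cells that express the gene. Il22, another cytokine of this program, had 0 UMIs in γδ T-like cells of both libraries.

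Among lymphocytes, the receptors were highest in γδ T-like and double-negative αβ T-like cells. Il23r, the specific chain of the IL-23 receptor, had 460 UMIs in all, 58.3% of them in γδ T-like and 18.3% in double-negative αβ T-like cells. Its level in γδ T-like cells was 149.5 CPM (NW, 147 UMIs) and 135.5 CPM (ABX, 121 UMIs). In double-negative αβ T-like cells it was 63.3 and 105.3 CPM, on 20 and 64 UMIs. It had no UMI in CD4 T-like cells, so the level in γδ T-like cells was at least 69.4-fold (NW) and 70.6-fold (ABX) higher than there, against a floor of 3 counts per library, and it stood 47.0-fold (24.8 to 100) and 53.6-fold (28.9 to 110.2) above ILC2-like cells. The difference from double-negative αβ T-like cells was 2.36-fold (1.48 to 3.98) in NW and 1.29-fold (0.943 to 1.77) in ABX, so that in ABX the 2 classes did not differ beyond counting error. Treg-like cells of ABX were at 29.5 CPM (11.9 to 60.8) from 7 UMIs in 4 of 80 cells, against 2.85 CPM (0.587 to 8.32) in NW. Il1r1, the signalling receptor of IL-1, followed the same order among lymphocytes. Its level was 256.3 CPM (NW, 252 UMIs) and 135.5 CPM (ABX, 121 UMIs) in γδ T-like and 104.4 and 118.5 CPM in double-negative αβ T-like cells, a difference of 2.45-fold (1.70 to 3.64) in NW and 1.14-fold (0.847 to 1.55) in ABX. Outside lymphocytes, endothelial-like cells held 15.3%, macrophage-like cells 11.1% and fibroblast-like cells 8.07% of its 1004 UMIs, against 37.2% in γδ T-like and 10.5% in double-negative αβ T-like cells. Of the 517 ABX UMIs, endothelial-like cells held 23.0% and fibroblast-like cells 14.5%, against 23.4% in γδ T-like and 13.9% in double-negative αβ T-like cells. The level of Il1r1 in the 89 fibroblast-like cells of ABX was 95.9 CPM.

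Cd163l1, also known as Scart1, codes for a scavenger receptor cysteine-rich protein of IL-17-type γδ T cells, and was the member most concentrated in γδ T-like cells apart from Il17a, with 79.7% of its 3795 UMIs there. Its level was 1624 CPM in NW (1597 UMIs) and 1599 CPM in ABX (1428 UMIs). In double-negative αβ T-like cells it was 94.95 and 39.5 CPM, so γδ T-like cells were 17.1-fold (11.9 to 25.4) and 40.5-fold (27.1 to 63.4) higher. The related gene 5830411N06Rik ran the other way, since its level in γδ T-like cells was 0.214 times (0.141 to 0.322) that of double-negative αβ T-like cells in NW and 0.497 times (0.355 to 0.692) in ABX, but it leads the double-negative cluster and its level there is a description of that cluster. Within γδ T-like cells it was more frequent where Cd163l1 was not seen. It had a UMI in 4 of 200 NW cells with Cd163l1 (2.0%, 0.548% to 5.04%) and in 7 of 40 without (17.5%, 7.34% to 32.8%), and in ABX in 10 of 239 (4.18%, 2.02% to 7.56%) and 13 of 61 (21.3%, 11.9% to 33.7%).

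Blk, a Src family kinase known from B cells and from IL-17-producing γδ T cells, had a pair of sources. B cell-like cells held 50.7% and γδ T-like cells 19.5% of its 4259 UMIs. The level was 560.4 and 314.7 CPM in γδ T-like cells, 378.9 and 342.2 CPM in B cell-like cells, 208.9 and 139.9 CPM in double-negative αβ T-like cells, and 2.87 and 12.8 CPM in CD4 T-like cells (NW and ABX in each case). The B cell gene Cd79a was set beside it. In B cell-like cells the ratio of Blk to Cd79a UMIs was 0.126 (0.116 to 0.136) in NW and 0.102 (0.0966 to 0.108) in ABX, and in γδ T-like cells it was 10.6 (7.97 to 14.4) and 28.1 (15.1 to 59.2). In CD4 T-like cells it was 0.0784 (0.0206 to 0.213) and 0.179 (0.105 to 0.289).

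The transcription factors were spread more widely. Zbtb16 was at 135.3 and 100.8 CPM in γδ T-like cells and at 120.3 and 164.6 CPM in double-negative αβ T-like cells. These levels did not differ beyond counting error in NW (1.13-fold, 0.779 to 1.66), and in ABX the γδ T-like level was 0.612 times (0.455 to 0.822) the other. The Xcl1-high class was at 18.8 and 15.2 CPM, and ILC2-like cells at 13.7 and 15.6 CPM. Macrophage-like cells, with 12.3 and 21.9 CPM, held 44.4% of its 2078 UMIs, being the most numerous class. Zbtb16 was higher in fibroblast-like cells of ABX, at 58.8 CPM from 28 of 89 cells. In neutrophil-like cells it was at 60.4 and 35.1 CPM, on 9 and 4 UMIs. Maf, which codes for c-Maf, a regulator of IL-17-type γδ T cells and of macrophages, was in γδ T-like cells at 1424 and 1131 CPM, in double-negative αβ T-like cells at 914.7 and 832.8 CPM, in Treg-like cells at 936.5 and 818.2 CPM and in macrophage-like cells at 2681 and 2719 CPM. The last held 80.8% of its 192342 UMIs, so its level elsewhere was set beside that of a macrophage gene. In macrophage-like cells the ratio of Maf to C1qa, a complement gene of macrophages, was 1.12 (1.11 to 1.13) and 1.35 (1.33 to 1.37), and in B cell-like cells it was 1.11 (0.970 to 1.27) and 1.49 (1.33 to 1.67). The γδ T-like ratio was 15.4 (12.4 to 19.2) and 24.6 (18.0 to 34.5), in double-negative αβ T-like cells 19.3 (11.5 to 34.9) and 24.1 (15.6 to 39.3), and in CD4 T-like cells 5.59 (4.75 to 6.61) and 4.06 (3.56 to 4.65).

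**Figure D1:**
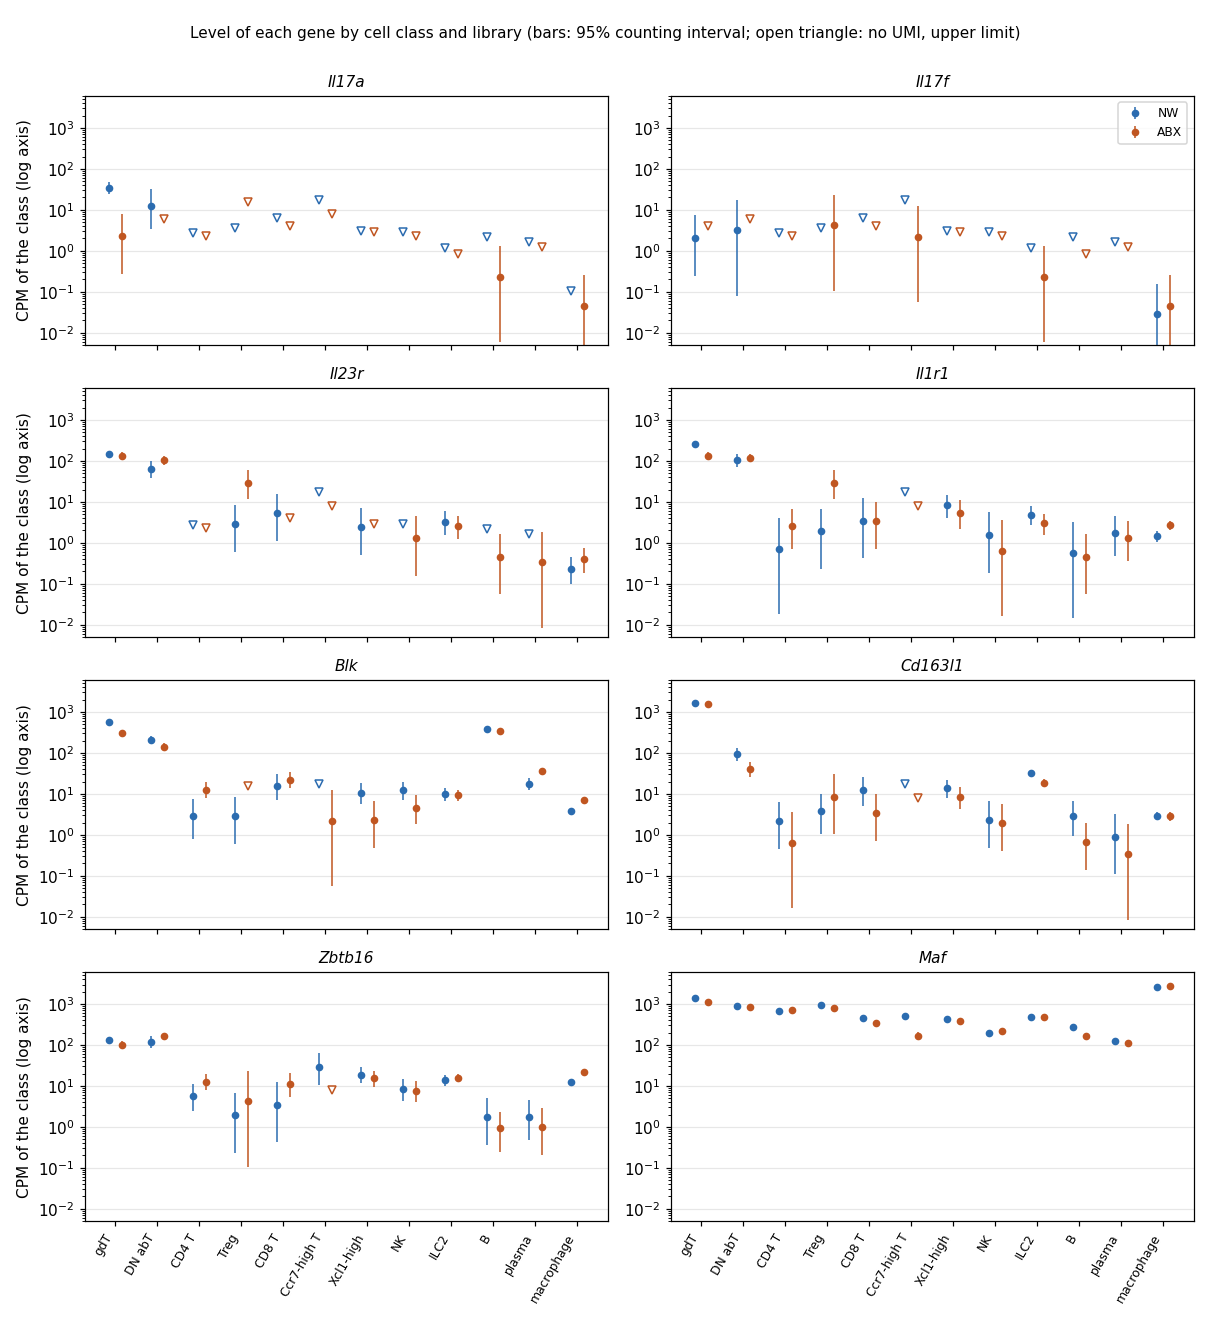
Level of each of the 8 genes in 12 cell classes (DN abT, double-negative αβ T-like), as CPM on a log axis, with NW in blue and ABX in orange and bars for the 95% counting interval. Open triangles mark the upper limit where no UMI was seen. Il17a, Il23r and Cd163l1 are highest in γδ T-like cells of NW, Blk is high in both B cell-like and γδ T-like cells, and Maf is highest in macrophage-like cells.

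As background to the shares of cells that follow, cells that should lack these genes rarely had a UMI. In B cell-like cells, with medians of 4035 and 3951 UMIs, the shares in NW and ABX were 0% and 0.212% for Il23r, 0.287% and 0.212% for Il1r1, 1.15% and 0.318% for Cd163l1 and 0.573% and 0.423% for Zbtb16, and for Blk, in ILC2-like cells with medians of 3984 and 3464 UMIs, they were 2.06% and 2.41%. Maf had a UMI in 27.8% and 21.7% of B cell-like cells, and its shares are read against that. The γδ T-like cells had medians of 3574 and 2947.5 UMIs.

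The genes were found together in single γδ T-like cells. Of the 7 genes other than Maf, at least 2 were detected in 77.9% (NW) and 66.3% (ABX) of them, at least 3 in 58.8% and 39.0%, and at least 4 in 31.7% and 10%. In double-negative αβ T-like cells at least 2 had a UMI in 35.4% and 39.2% and at least 4 in 6.33% and 1.70%, and in CD4 T-like cells at least 2 in 0.248% and 0.242%. These shares count all UMIs and were not adjusted for depth, which was higher in NW. They were also not set against what the shares of the single genes alone would give. Cells with Cd163l1 held most of the program. In NW, Il1r1 had a UMI in 117 of 200 γδ T-like cells with Cd163l1 (58.5%, 51.3% to 65.4%) and in 2 of 40 without it (5.0%, 0.611% to 16.9%), Blk in 66.5% (59.5% to 73.0%) and 15.0% (5.71% to 29.8%), and Trdv4 in 69.5% (62.6% to 75.8%) and 7.5% (1.57% to 20.4%). Il23r was less tied to it, at 40.5% (33.6% to 47.7%) and 20% (9.05% to 35.7%). In ABX each of these genes was again more frequent in cells with Cd163l1, with Il1r1 in 33.1% (27.1% to 39.4%) and 4.92% (1.03% to 13.7%), Blk in 51.9% (45.4% to 58.4%) and 19.7% (10.6% to 31.8%), Trdv4 in 38.9% (32.7% to 45.4%) and 1.64% (0.0415% to 8.80%), and Il23r in 33.1% (27.1% to 39.4%) and 14.8% (6.98% to 26.2%). Cd27, a marker of γδ T cells that make interferon, had no UMI in the cells with Cd163l1 of either library, and was in 6 of the 40 NW and 2 of the 61 ABX cells without it. Median depth was alike in cells with and without Cd163l1, at 3565.5 and 3745 UMIs in NW and 2963 and 2927 UMIs in ABX. Among the 13 Il17a-positive NW cells, 12 had Blk, 11 Il1r1, 10 Trdv4, 8 Il23r and 4 Zbtb16, and in the 227 negative cells these genes had a UMI in 56.0%, 47.6%, 58.1%, 35.7% and 36.1%. The positive cells were deeper, with a median of 4929 UMIs against 3557, and the part of depth in these shares was not tested. Cells of a library are not replicates, and these shares describe 1 library each.

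**Figure D2:**
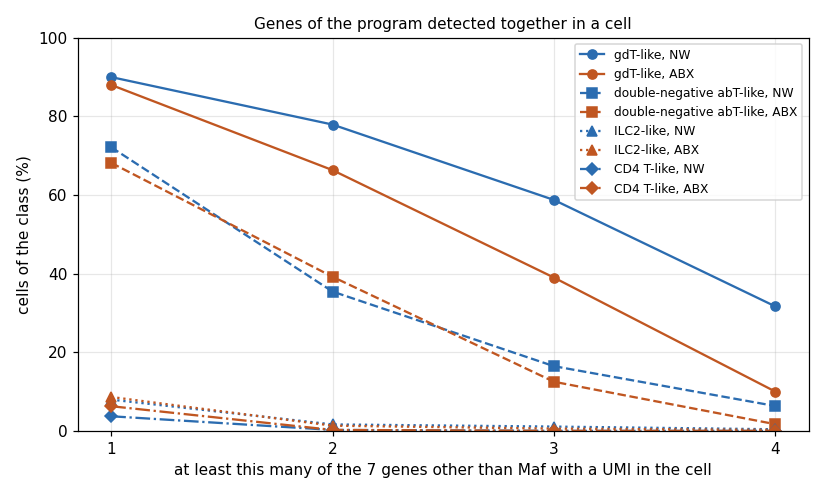
Share of cells (%) in which at least 1 to 4 of the 7 genes other than Maf had a UMI, for 4 cell classes in NW (blue) and ABX (orange), not adjusted for depth. The γδ T-like lines are the highest, with 31.7% of NW and 10% of ABX cells at 4 or more genes, the double-negative αβ T-like lines come next, and ILC2- and CD4 T-like cells stay under 10% throughout.

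Between the conditions, the cytokine, the IL-1 receptor and the kinase stood lower in γδ T-like cells of ABX, while the IL-23 receptor and Cd163l1 differed by less than counting error. Il17a was at 34.6 CPM (NW) and 2.24 CPM (ABX), a log2 ratio of ABX over NW of -3.95 (95% counting interval -7.05 to -1.99), resting on 34 and 2 UMIs. Il1r1 had a log2 ratio of -0.92 (-1.24 to -0.60) and Blk of -0.83 (-1.05 to -0.62). Smaller differences were seen for Zbtb16, at -0.42 (-0.83 to -0.03), and Maf, at -0.33 (-0.45 to -0.21). Maf was also lower outside T cells, at -0.67 (-0.84 to -0.50) in B cell-like, -0.52 (-0.628 to -0.415) in monocyte-like and -0.29 (-0.42 to -0.17) in DC-like cells. It was at 0.02 (0.006 to 0.035) in macrophage-like and 0.17 (-0.07 to 0.41) in NK-like cells. The ratio of Maf to the macrophage gene C1qa was 1.11 (NW) and 1.49 (ABX) in B cell-like cells. It was 0.974 and 0.966 in monocyte-like and 1.153 and 1.502 in DC-like cells, beside 1.12 and 1.35 in macrophage-like cells. The part of macrophage RNA in the lower Maf of B cell-, monocyte- and DC-like cells was not tested. In γδ T-like cells, Il23r, at -0.14 (-0.50 to 0.22), and Cd163l1, at -0.02 (-0.13 to 0.08), did not differ beyond counting error. Cd163l1 depended on how the cells were chosen, with -0.31 (-0.42 to -0.19) when single cells were gated on T cell receptor genes and antibody and -0.48 (-0.58 to -0.38) in clusters from RNA alone, which gave 312 NW and 476 ABX γδ T-like cells and no separate double-negative class. Il23r was at -0.55 (-0.96 to -0.14) under the gate. Of the 7 members with at least 20 UMIs, 3 were at least 1.5-fold lower in ABX and 0 at least 1.5-fold higher, and over the 8486 genes with at least 20 UMIs, 8.65% were at least 1.5-fold lower and 10.3% at least 1.5-fold higher. The median log2 ratio was -0.42 over the 7 members and 0.05 over the 8486 genes.

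Shares of γδ T-like cells gave the same picture. Il1r1 had a UMI in 49.6% (NW, 43.1% to 56.1%) and 27.3% (ABX, 22.4% to 32.8%) of the class, and Blk in 57.9% (51.4% to 64.2%) and 45.3% (39.6% to 51.2%). For Zbtb16 the shares were 35.8% (29.8% to 42.3%) and 23.3% (18.7% to 28.5%), for Maf 91.7% (87.4% to 94.8%) and 83.3% (78.6% to 87.4%), for Il23r 37.1% (31.0% to 43.5%) and 29.3% (24.2% to 34.8%), and for Cd163l1 83.3% (78.0% to 87.8%) and 79.7% (74.7% to 84.1%). Il17a was in 5.42% (2.92% to 9.08%) and 0.333% (0.00844% to 1.84%). The NW cells were deeper. With each cell thinned to 1000 UMIs (237 NW and 292 ABX cells were deep enough), the shares to be found were 21.7% and 12.3% for Il1r1, 34.5% and 23.5% for Blk, 12.5% and 9.36% for Zbtb16, 66.0% and 58.4% for Maf, 14.0% and 11.8% for Il23r, 71.0% and 67.9% for Cd163l1, and 2.34% and 0.162% for Il17a. Scaling by cells in place of UMIs lowers every gene of the γδ T-like class by 0.46 on the log2 scale, since the mean UMIs per cell were 4097 in NW and 2976 in ABX.

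**Figure D3:**
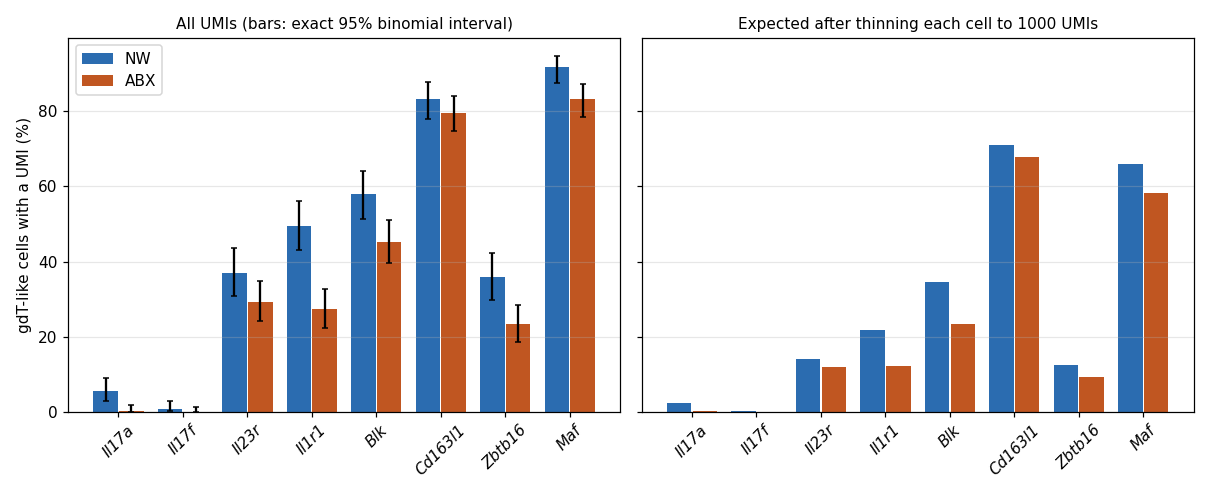
Share of γδ T-like cells (%) with a UMI of each gene in NW (blue, 240 cells) and ABX (orange, 300 cells), with all UMIs and exact 95% binomial intervals on the left, and after thinning to 1000 UMIs on the right. Il1r1 is at 49.6% in NW and 27.3% in ABX, and at 21.7% and 12.3% after thinning, while the Cd163l1 bars stay close in both panels.

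Other values of the γδ T-like class moved with the condition. Trdc was at 3178 CPM in NW and 1853 CPM in ABX, a log2 ratio of -0.78 (-0.86 to -0.69), and Trdv4 at 348.9 and 170.2 CPM, -1.04 (-1.32 to -0.76), while Tcrg-V6, the Vγ6 gene, was at 52.9 and 47.0 CPM, -0.17 (-0.79 to 0.44). Trdv4 was detected in 59.2% (NW, 52.7% to 65.5%) and 31.3% (ABX, 26.1% to 36.9%) of the class. The summed level of 9 macrophage markers was 1139 and 616 CPM, with each marker above 0 in both libraries, that of 8 B cell markers 360 and 422 CPM, of 8 NK markers 219 and 187 CPM and of 9 ILC2 markers 552 and 433 CPM, where Il13 was at 0 in both. Their part in the differences between the libraries was not tested.

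Split by whether Trdv4 was seen, the cells gave different ratios. In the 142 NW and 94 ABX cells with a Trdv4 UMI, Il1r1 was found in 64.8% (56.3% to 72.6%) and 33.0% (23.6% to 43.4%), with a log2 ratio of its level of -1.29 (-1.80 to -0.81), and Blk in 71.1% (62.9% to 78.4%) and 58.5% (47.9% to 68.6%), with a ratio of -0.89 (-1.18 to -0.60). In the 98 NW and 206 ABX cells without one, Il1r1 was found in 27.6% (19.0% to 37.5%) and 24.8% (19.0% to 31.2%), with a log2 ratio of 0.09 (-0.44 to 0.64), and Blk in 38.8% (29.1% to 49.1%) and 39.3% (32.6% to 46.3%), with a ratio of 0.14 (-0.24 to 0.53). Maf was at -0.50 (-0.67 to -0.33) with Trdv4 and 0.16 (-0.02 to 0.35) without. Cd163l1 was at -0.05 (-0.20 to 0.09) and 0.45 (0.27 to 0.62), and Il23r at 0.15 (-0.36 to 0.65) and -0.24 (-0.78 to 0.31). Il17a had 28 UMIs in 10 NW cells with Trdv4 and 0 in ABX, and 6 and 2 UMIs in cells without it. This split was chosen after the level of Trdv4 was known to differ, and a cell that carries Trdv4 can lack a UMI of it. Median depth was 3766.5 (NW) and 3162.5 (ABX) UMIs in cells with Trdv4, and 3372 and 2868.5 UMIs in cells without it. The part of depth in these shares was not tested. Within the 200 NW and 239 ABX cells with a Cd163l1 UMI, Il1r1 was at -0.98 (-1.31 to -0.65), Blk at -0.998 (-1.22 to -0.78), Zbtb16 at -0.58 (-1.01 to -0.17) and Il17a at -3.98 (-7.08 to -2.01). In the 40 NW and 61 ABX cells without one, Blk and Maf were higher in ABX, and the intervals of Il1r1 and Zbtb16 include 0. Blk was at 1.73 (0.70 to 2.87) on 11 and 31 UMIs, Maf at 0.67 (0.32 to 1.02), Il1r1 at 0.65 (-1.91 to 3.42) on 3 and 4 UMIs and Zbtb16 at 1.38 (-0.27 to 3.25) on 5 and 11 UMIs.

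**Figure D4:**
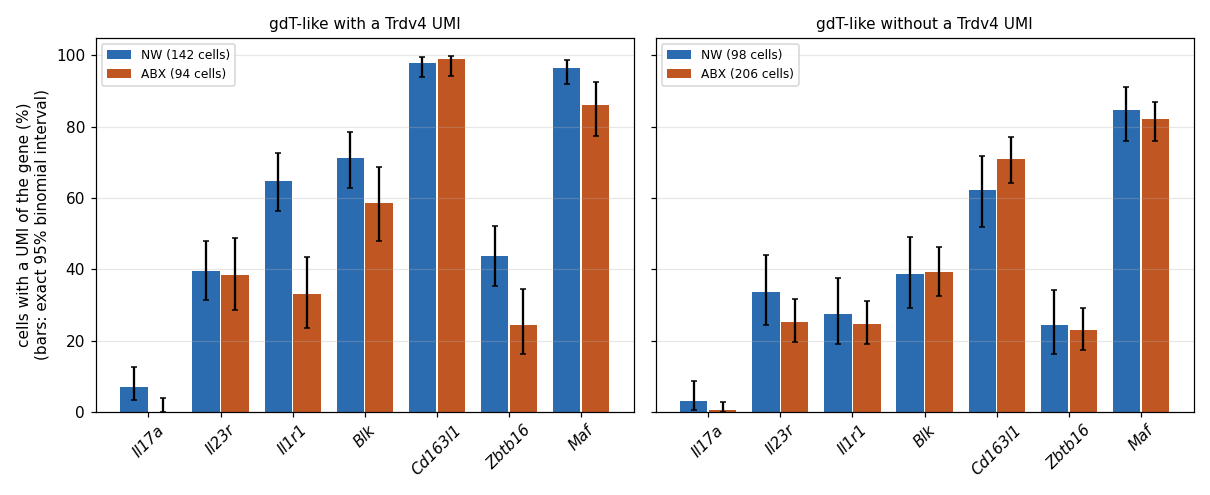
Share of γδ T-like cells (%) with a UMI of 7 genes in NW (blue) and ABX (orange), for cells with a Trdv4 UMI on the left and without one on the right, with exact 95% binomial intervals. With Trdv4, Il1r1 is at 64.8% in NW and 33.0% in ABX, and without it at 27.6% and 24.8%.

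In αβ T-like cells as a whole the receptors and Zbtb16 stood higher in ABX. The log2 ratio was 1.36 (0.70 to 2.07) for Il23r on 26 and 71 UMIs, 1.09 (0.53 to 1.68) for Il1r1 on 38 and 86 UMIs, 1.14 (0.68 to 1.62) for Zbtb16 on 56 and 131 UMIs and 0.53 (0.12 to 0.95) for Blk, while Maf was at -0.32 (-0.40 to -0.24) and Cd163l1 at -0.64 (-1.36 to 0.06). Of the 6 members with at least 20 UMIs, 3 were at least 1.5-fold higher and 1 at least 1.5-fold lower in ABX, and over 10898 genes 7.69% were higher and 5.95% lower by as much. Most of these UMIs came from the double-negative cells. In NW and ABX these held 76.9% and 90.1% of the Il23r, 86.8% and 83.7% of the Il1r1 and 67.9% and 76.3% of the Zbtb16 UMIs, while being 8.40% (6.71% to 10.4%) and 17.4% (15.1% to 19.8%) of αβ T-like cells.

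Within the double-negative αβ T-like cells the log2 ratio was 0.73 (-0.01 to 1.54) for Il23r, 0.18 (-0.43 to 0.82) for Il1r1, 0.45 (-0.10 to 1.03) for Zbtb16 and -0.14 (-0.35 to 0.08) for Maf, none beyond counting error, -0.58 (-1.06 to -0.09) for Blk and -1.27 (-2.10 to -0.44) for Cd163l1, whose 30 NW UMIs came from 4 cells. Il17a had 4 UMIs in 2 NW cells and 0 in ABX. Of 6 members with at least 20 UMIs, 1 was at least 1.5-fold higher and 1 at least 1.5-fold lower in ABX, and over 6617 genes 12.8% were higher and 9.91% lower by as much. In the other αβ T-like cells, Blk was at 1.39 (0.53 to 2.32) on 16 and 41 UMIs, with Cd79a beside it in CD4 T-like cells at 51 and 112 UMIs, and Zbtb16 at 0.82 (-0.07 to 1.74). Il23r, with 6 and 7 UMIs, and Il1r1, with 5 and 14, had ratios with wide intervals there, 0.26 (-1.54 to 2.11) and 1.52 (-0.04 to 3.35).

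**Figure D5:**
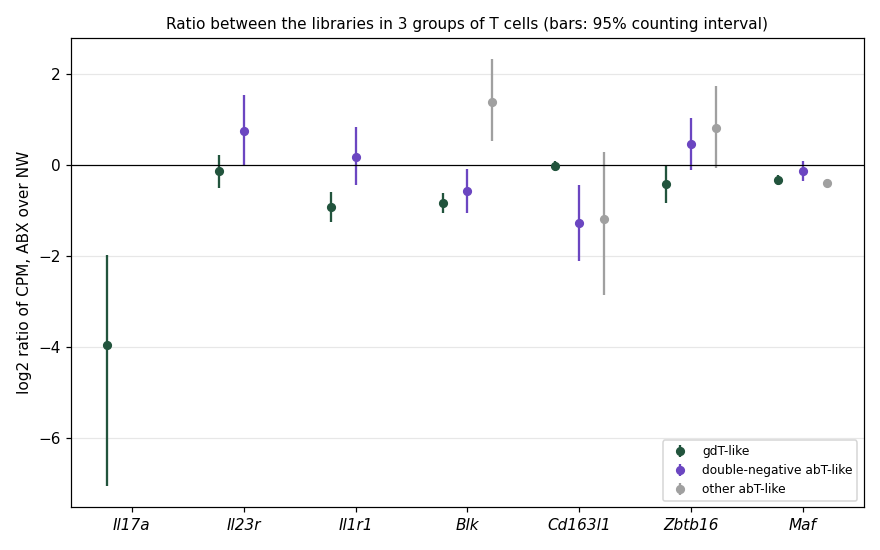
Log2 ratio of CPM, ABX over NW, with 95% counting intervals, for genes with at least 20 UMIs in γδ T-like (green), double-negative αβ T-like (purple) and the other αβ T-like cells (grey). In γδ T-like cells Il17a (-3.95), Il1r1 (-0.92) and Blk (-0.83) lie below 0 and Cd163l1 (-0.02) lies on it, and in double-negative αβ T-like cells the intervals of Il23r, Il1r1 and Zbtb16 include 0.

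The wider pathway was read from a list of 40 genes. In γδ T-like cells 32 had at least 20 UMIs, of which 1 was at least 1.5-fold higher and 6 at least 1.5-fold lower in ABX, and their median log2 ratio was -0.10, against 10.3% higher, 8.65% lower and a median of 0.05 over the 8486 genes. The higher one was 5830411N06Rik, at 0.77 (0.19 to 1.36). The lower ones were Trdv4, the transcription factor gene Irf4 at -2.45 (-4.85 to -0.67), the cytokine gene Csf2 at -1.35 (-2.27 to -0.50), Lgals3, which codes for galectin-3, at -1.12 (-1.63 to -0.64), the leukotriene B4 receptor gene Ltb4r1 at -0.62 (-0.99 to -0.25), and Il1b at -1.14 (-2.65 to 0.20), a gene of myeloid cells that had 17 and 7 UMIs here. Among the regulators, the nuclear receptor gene Rora was at 0.38 (0.25 to 0.51) and Sox13, a regulator of the γδ lineage, at -0.20 (-0.44 to 0.03). Among the receptors, Il7r was at 0.24 (0.16 to 0.31) and Il18r1, a receptor chain for IL-18, at 0.44 (0.32 to 0.56). The effector-related genes Tmem176a and Ccr2 were at -0.03 (-0.14 to 0.07) and 0.06 (-0.06 to 0.18). In double-negative αβ T-like cells 29 of the 40 genes had enough UMIs, with 1 higher and 2 lower (12.8% and 9.91% of all genes tested). In αβ T-like cells as a whole 34 had enough, with 6 higher and 9 lower (7.69% and 5.95% of all genes tested).

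A list of 15 genes of interferon-type γδ T cells was set beside the pathway. In γδ T-like cells 11 had at least 20 UMIs, with 0 higher and 4 lower in ABX by 1.5-fold and a median of 0.04, where 10.3% and 8.65% of all genes tested were past that fold. These were Ly6c2 at -2.18 (-2.70 to -1.69), whose 205 NW UMIs came from 11 cells, Gzmb at -1.12 (-2.10 to -0.22), the T-bet gene Tbx21 at -0.84 (-1.52 to -0.18) and Ly6a at -0.69 (-1.09 to -0.29). Ifng had 13 and 6 UMIs. In double-negative αβ T-like cells 13 had enough UMIs, with 1 higher and 4 lower (12.8% and 9.91% of all genes), and in αβ T-like cells all 15, with 0 higher and 1 lower (7.69% and 5.95%). A list of 16 genes of innate-like αβ T cells had 10 with enough UMIs in double-negative αβ T-like cells, with 0 higher and 2 lower, 9 in γδ T-like cells, with 0 higher and 1 lower, and 14 in αβ T-like cells, with 5 higher and 2 lower, against the same shares of all genes in each class.

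The ligands of the receptors were looked for in the other cells. Il1b, which codes for IL-1β, was highest in neutrophil-like cells, at 7530 CPM (7096 to 7984) in NW and 4076 CPM (3713 to 4463) in ABX, on 66 and 61 cells. It was at 81.2 CPM (78.3 to 84.3) and 117.9 CPM (113.5 to 122.5) in macrophage-like cells and at 127.7 CPM (121.8 to 133.7) and 71.6 CPM (66.2 to 77.3) in DC-like cells, so its direction differed between these classes. Il12b, the chain shared by IL-23 and IL-12, was at 23.0 CPM (20.5 to 25.6) and 16.6 CPM (14.1 to 19.5) in DC-like cells. These UMIs came from 31 of 1704 NW and 21 of 1257 ABX cells. Il23a, the other chain of IL-23, had only 4 and 2 UMIs in DC-like cells (0.287 and 0.217 CPM). In macrophage-like cells Il23a was at 0.227 and 0.314 CPM, so a source of IL-23 was not established. The receptor gene Il17ra was found in all of the classes examined, with 118.0 and 114.2 CPM in γδ T-like and 117.9 and 132.2 CPM in B cell-like cells, whereas its partner Il17rc, at 20.3 and 24.6 CPM in γδ T-like cells, was at 0.283 and 0.537 CPM in macrophage-like cells.

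Over the 33 pairs of a class and a library with at least 50 cells, the genes whose levels ran most like each member were found by the Pearson correlation of log2(CPM + 10), as a description, since classes of a library share its depth and free RNA. For Il23r they included Kcnk1 (0.98) and Il17re (0.98), the latter a receptor chain for IL-17C. For Il1r1 they were Il17rc (0.97), Zfp462 (0.96) and Prickle1 (0.94), and for Cd163l1 they were Scrt1 (0.95), Serinc2 (0.94) and Gm26614 (0.93). The more widely used members had no gene as close. Blk ran most like Akirin1 (0.73), Parp1 (0.72) and Sema4b (0.71), Zbtb16 most like Igf1r (0.85), Smox (0.84) and Pde5a (0.83), and Maf most like Serpinb6a (0.84), Sept8 (0.83) and Aplp2 (0.83). Among the members, Il23r ran most like Cd163l1 (0.88) and Il1r1 (0.86).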

How the data were processed

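The authors' BD Rhapsody whole transcriptome pipeline (v1.8) aligned the reads to GRCm38 (mm10 per the labels) and gave the deposited values, whole-number UMI counts of each gene and antibody per cell, without normalization. Cells with at least 500 UMIs, at least 200 genes and at most 25% mitochondrial UMIs were kept, as in the study's methods. Counts were log-normalized and clustered in Seurat 5.3.0 (R 4.3.3) on a weighted graph of mRNA (30 principal components) and protein (8 antibodies, as in the methods), at resolution 0.6, then again within T, NK and innate lymphoid cells. The members and pathway genes were left out of the variable genes. Clusters were named from fixed markers (at least 3, each 1.5-fold up and in 10% of cells), and αβ T names needed a median of 15 TCRβ antibody UMIs. The naming rules were adjusted after the clusters were seen. UMIs were summed per class and library, with no test, since each condition had 1 library. The 3750 genes found in 1 table alone were set to 0 where missing. The ratio was checked on simulated independent Poisson counts. These lack UMIs gathered in few cells, so the check does not cover that feature of the data. Alternatives were clusters with the genes kept, a gate on receptor genes, RNA alone, resolution 1.0, at most 10% mitochondrial UMIs, at least 1000 UMIs, Scrublet doublets (scanpy 1.11.5) left out, thinning and scaling by cells. Doublets were kept in the values given. Named genes are the members, genes of the pathway and interferon-type lists with at least 20 UMIs, and the 3 most alike for members with at least 50 UMIs. Other genes, and the splits by Trdv4 and Cd163l1, were chosen after their values were seen. The members and lists were chosen with earlier results of these data known. Gene positions are from GENCODE M21. Promoters of Blk, Zbtb16 and Maf were not analysed here, and 1 gene of the pathway list is not reported here.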

Additional observations from a re-analysis of the deposited data

Results flagged for a closer look

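The ratio between the libraries had opposite signs in γδ T-like and αβ T-like cells for 4 genes. On the log2 scale, Il23r was at -0.14 in γδ T-like, 0.73 in double-negative αβ T-like and 1.36 in αβ T-like cells, Il1r1 was at -0.92, 0.18 and 1.09, and Zbtb16 was at -0.42, 0.45 and 1.14. Blk was at -0.83 in γδ T-like and 0.53 in αβ T-like cells, and at -0.58 (-1.06 to -0.09) in the double-negative ones, the same sign as in γδ T-like cells. With 1 library per condition these differences between classes were not tested. The intervals lie off 0 on both sides for Il1r1, Blk and Zbtb16 between γδ T-like and αβ T-like cells, and the intervals of Il23r, Il1r1 and Zbtb16 in the double-negative cells include 0. The double-negative cells made up 8.40% of αβ T-like cells in NW and 17.4% in ABX. Classes other than T cells also varied. In macrophage-like cells Il1r1 was at 0.90 (0.33 to 1.46), Blk at 0.90 (0.56 to 1.24) and Zbtb16 at 0.83 (0.64 to 1.02). The B cell gene Cd79a had 459 (NW) and 1035 (ABX) UMIs in macrophage-like cells, beside 135 and 159 of Blk. The Blk to Cd79a ratio there was 0.294 and 0.154, against 0.126 and 0.102 in B cell-like cells. The part of B cell RNA in this difference was not tested. Il1r1 was at -1.14 (-2.40 to -0.03) in DC-like cells, and Blk at -1.45 (-2.97 to -0.09) in NK-like cells.

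Barcodes left out by the quality filters also held UMIs of the members. Over the 5188 NW and 5061 ABX barcodes, with medians of 599.5 and 515 UMIs, there were 19 UMIs of Il23r, 78 of Il1r1, 88 of Blk, 156 of Cd163l1, 88 of Zbtb16 and 4250 of Maf. NW and ABX held 65 and 91 UMIs of Cd163l1, and 11 and 8 of Il23r. Il17a and Il17f had 0 in both.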

How the results depend on the processing

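No paired analysis was possible because each condition had 1 library, and for the same reason no library could be left out. Il17a, Il1r1 and Blk stayed lower in ABX in γδ T-like cells under each other way of clustering, gating, filtering or scaling the cells that was run, with log2 ratios of Il17a from -4.57 to -3.73. Subsets of these cells differed. Cells without a Trdv4 UMI had Il17a at -2.16 (-5.50 to 0.32), Il1r1 at 0.09 and Blk at 0.14. Cells without a Cd163l1 UMI had Il1r1 at 0.65 (-1.91 to 3.42) and Blk at 1.73 (0.70 to 2.87). The values below are log2 ratios of ABX over NW. In γδ T-like cells, scaling by cells gave -0.60 for Il23r, -1.38 for Il1r1, -1.29 for Blk, -0.48 for Cd163l1, -0.89 for Zbtb16 and -0.79 for Maf. The gate on receptor genes and antibody gave -0.55 for Il23r, -0.31 for Cd163l1, -0.84 for Zbtb16 and -0.66 for Maf, clusters from RNA alone -1.10 for Blk and -0.48 for Cd163l1, and a limit of 10% mitochondrial UMIs -0.13 for Cd163l1. Cells with a Trdv4 UMI gave -1.29 for Il1r1 and -0.50 for Maf, and cells with a Cd163l1 UMI -0.48 for Maf, both chosen after seeing the data. In αβ T-like cells, leaving out the double-negative cells, also chosen after seeing the data, gave 0.26 (-1.54 to 2.11) for Il23r, 1.39 for Blk and -0.40 for Maf. Clusters from RNA alone gave 2.89 for Il1r1, -2.28 for Cd163l1 and 0.46 for Zbtb16, the gate 0.15 for Cd163l1 and -0.12 for Maf, and leaving out doublets -0.22 for Maf. The cause of these shifts was not tested. Of the recomputed shares of γδ T-like cells, 31 moved beyond their interval and 129 did not. Of the 31, 13 came from thinning to 1000 UMIs and 11 from asking for at least 2 UMIs, which lower a share by design. Scrublet's own threshold marked 1 ABX cell (0.00786%) and so did not work there. With the NW threshold in both libraries it marked 324 (2.55%).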
